A study of Mus musculus with 7 samples.

Results

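B-class ephrins and the receptors that bind them were followed in RNA from the flushed femora of female mice aged 12 weeks on a C57BL/6 background. The group comprised 9 of the 27179 genes in the files, chosen by gene symbol alone: the ligands Efnb1, Efnb2 and Efnb3, the receptors Ephb1, Ephb2, Ephb3, Ephb4 and Ephb6, and Epha4. Of the mice, 3 were Dmp1Cre.EfnB2f/f, in which Cre recombinase driven by a fragment of the Dmp1 promoter acts on floxed Efnb2 alleles in late osteoblasts and osteocytes, and 4 were Dmp1Cre controls, littermates or cousins that carried the same hemizygous Cre without floxed alleles. Whether Cre also acted in other cells of these femora was not measured here. Each library came from 1 mouse, and total counts ranged from 17245556 to 22075778. Dmp1Cre.EfnB2f/f 1 and 2 came from one parent cross, controls 1 and 2 from another and control 4 from its own, while a single cross gave both Dmp1Cre.EfnB2f/f 3 and control 3.

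Ephrins are membrane-bound ligands for Eph receptors, the largest family of receptor tyrosine kinases. The B-class ephrins span the membrane, so contact between cells signals in both directions: forward into the cell that bears the receptor, through its kinase, and in reverse into the cell that bears the ligand, through tyrosine phosphorylation and a PDZ-binding tail. In bone, EphrinB2 and its receptor EphB4 are known from contacts among osteoblasts and osteocytes and between osteoclasts and osteoblasts, and in blood vessels Efnb2 marks arterial and Ephb4 venous endothelium.

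In these whole-bone counts the targeted gene went against its label. Efnb2 mRNA was more abundant, not less, in each of the 3 libraries with the Dmp1Cre.EfnB2f/f label than in any control. The counts are summed over all exons of the gene and do not separate recombined from intact transcripts, and they come from all cells of the bone piece. They therefore do not check the deletion in osteocytes, and the groups are named below by their labels. The study checked the deletion by PCR of the targeted region in osteocytes sorted from younger mice of this genotype with a GFP reporter. It reported that Efnb2 was effectively targeted there and kept in cells other than osteocytes.

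The sequences before the start sites of 3 members are shown because Efnb2 and Epha4 were the 2 members that differed most between the groups and Ephb4 was the most abundant. Each line gives the 250 bases before 1 annotated transcript start, 5′ to 3′ on the strand of the gene, from RefSeq on GRCm38.p6. For Epha4, and for Ephb2, Ephb3 and Ephb6 among the members counted below, the stretch overlaps the interval of the gene itself. Capitals mark the GC box GGGCGG or its reverse complement and the hypoxia element core ACGTG. The stretches are chr8:8661243-8661492 on the minus strand for Efnb2, chr1:77515089-77515338 on the minus strand for Epha4 and chr5:137349859-137350108 on the plus strand for Ephb4.
Efnb2: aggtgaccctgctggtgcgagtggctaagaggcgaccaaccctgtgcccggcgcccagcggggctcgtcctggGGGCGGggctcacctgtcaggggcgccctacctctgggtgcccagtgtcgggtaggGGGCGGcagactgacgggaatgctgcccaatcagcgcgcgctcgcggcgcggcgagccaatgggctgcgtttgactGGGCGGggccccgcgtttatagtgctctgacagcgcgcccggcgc
Epha4: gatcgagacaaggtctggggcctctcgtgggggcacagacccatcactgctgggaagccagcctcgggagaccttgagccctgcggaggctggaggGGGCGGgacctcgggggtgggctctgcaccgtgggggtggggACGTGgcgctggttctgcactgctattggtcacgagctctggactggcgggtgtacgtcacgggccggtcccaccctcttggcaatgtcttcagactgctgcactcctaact
Ephb4: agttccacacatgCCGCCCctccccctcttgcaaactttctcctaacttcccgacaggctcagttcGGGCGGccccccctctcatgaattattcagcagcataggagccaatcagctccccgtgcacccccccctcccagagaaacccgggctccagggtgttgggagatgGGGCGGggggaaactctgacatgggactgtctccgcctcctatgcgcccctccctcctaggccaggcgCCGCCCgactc
The Efnb2 stretch held 3 GC boxes, 177, 121 and 45 bases before the start. The Ephb4 stretch held 4 and the Epha4 stretch 1, with 1 ACGTG in the latter. Of the 8 members found in the RefSeq promoter table, 5 held a GC box and 3 an ACGTG on either strand, motifs present in 32.7% and 16.6% of all 32851 promoters over the same length. The letters GTGGGAA, bound by RBPJ, and TGACGTCA, the cAMP response element, occurred in 0 of the 8 stretches and in 5.42% and 1.55% of all promoters. All 8 stretches were rich in CpG, with 10 to 27 CpG dinucleotides against a median of 6 over all promoters. The Efnb2 stretch had 27 and a GC content of 72.0%, where the median was 52.4%. Both the GC box and ACGTG contain a CpG, and their rates were not compared with promoters of like CpG content. A match of letters is not a binding site, and the absence of a match tells nothing of a factor.

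All 9 members passed the filter on low counts (0.65 CPM, the count relative to library size, in 3 or more libraries). Levels of different genes were compared per length, as RPKM (the same count divided also by exon length, on TMM library sizes). In the controls Ephb4 led with 10.3 ± 4.11 RPKM (SD, n = 4), followed by Efnb1 with 7.57 ± 2.75. The targeted ligand Efnb2 came next at 1.69 ± 0.248 RPKM. Below it lay Ephb3 at 1.18 ± 0.689, Ephb6 at 0.959 ± 0.329 and Epha4 at 0.907 ± 0.255, with Ephb2 at 0.8295 ± 0.262. Efnb3 (0.441 ± 0.0801) and Ephb1 (0.223 ± 0.0948) stood last.

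**Figure D1:**
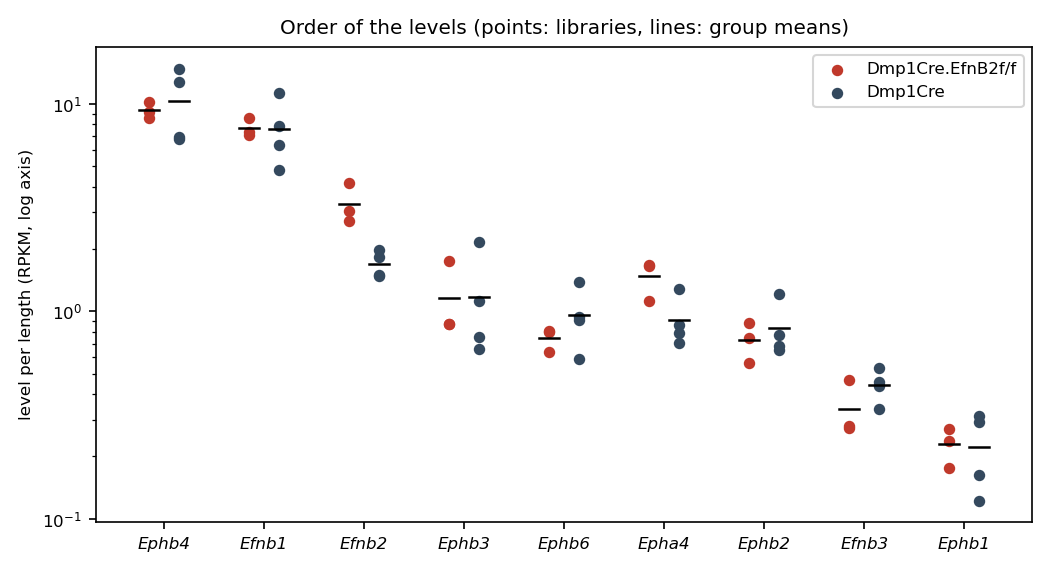
Level per length of the 9 members in RPKM (log axis), ordered by the control mean. Points are libraries of the 2 genotypes and short lines are group means: Ephb4 and Efnb1 lie above all others, and Efnb3 and Ephb1 lie at the bottom.

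Each member was compared with its neighbour in this order within the 7 libraries by a two-sided exact paired sign-flip permutation test on log2(RPKM + 0.01), whose smallest p is 0.015625. After adjustment over the 8 pairs, 4 pairs differed, each in the same direction in 7 of 7 libraries and each with an adjusted exact permutation p of 0.03125. Ephb4 was above Efnb1 by 0.36 on the log2 scale, Efnb1 above Efnb2 by 1.72, Ephb2 above Efnb3 by 0.97 and Efnb3 above Ephb1 by 0.82. The step from Efnb2 to Ephb3 was 1.05 ± 0.83 (SD of the log2 difference, n = 7, adjusted exact permutation p = 0.05, not under the threshold). Among the 4 members from Ephb3 to Ephb2 no neighbours were separated, and other pairs of these members were not compared. The adjusted exact permutation p values were 0.143 for Ephb3 and Ephb6, 0.172 for Ephb6 and Epha4 and 0.0625 for Epha4 and Ephb2. The last of these pairs was in order in 6 of 7 libraries, while Epha4 exceeded Ephb6 in the mean over all 7 libraries although not over the controls.

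The genotypes were compared to ask whether ligands and receptors of the same pathway differed where EphrinB2 was targeted. By edgeR's quasi-likelihood test, 0 of the 9 members passed an adjusted p of 0.05, as did 0% of the 15077 genes tested. At an unadjusted p under 0.05 there were 2 members, Efnb2 and Epha4, both higher in the libraries with the Dmp1Cre.EfnB2f/f label, where 9.66% of all genes passed in either direction and 4.64% were higher. Efnb2 alone of the 9 members had groups without overlap (1 of 9; 11.3% of all genes in either direction, 5.05% with all Dmp1Cre.EfnB2f/f libraries higher). The log2 fold change was positive for 4 members and negative for 5, with a median of -0.02 against 0.01 over all genes, of which 51.3% were positive.

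**Figure D2:**
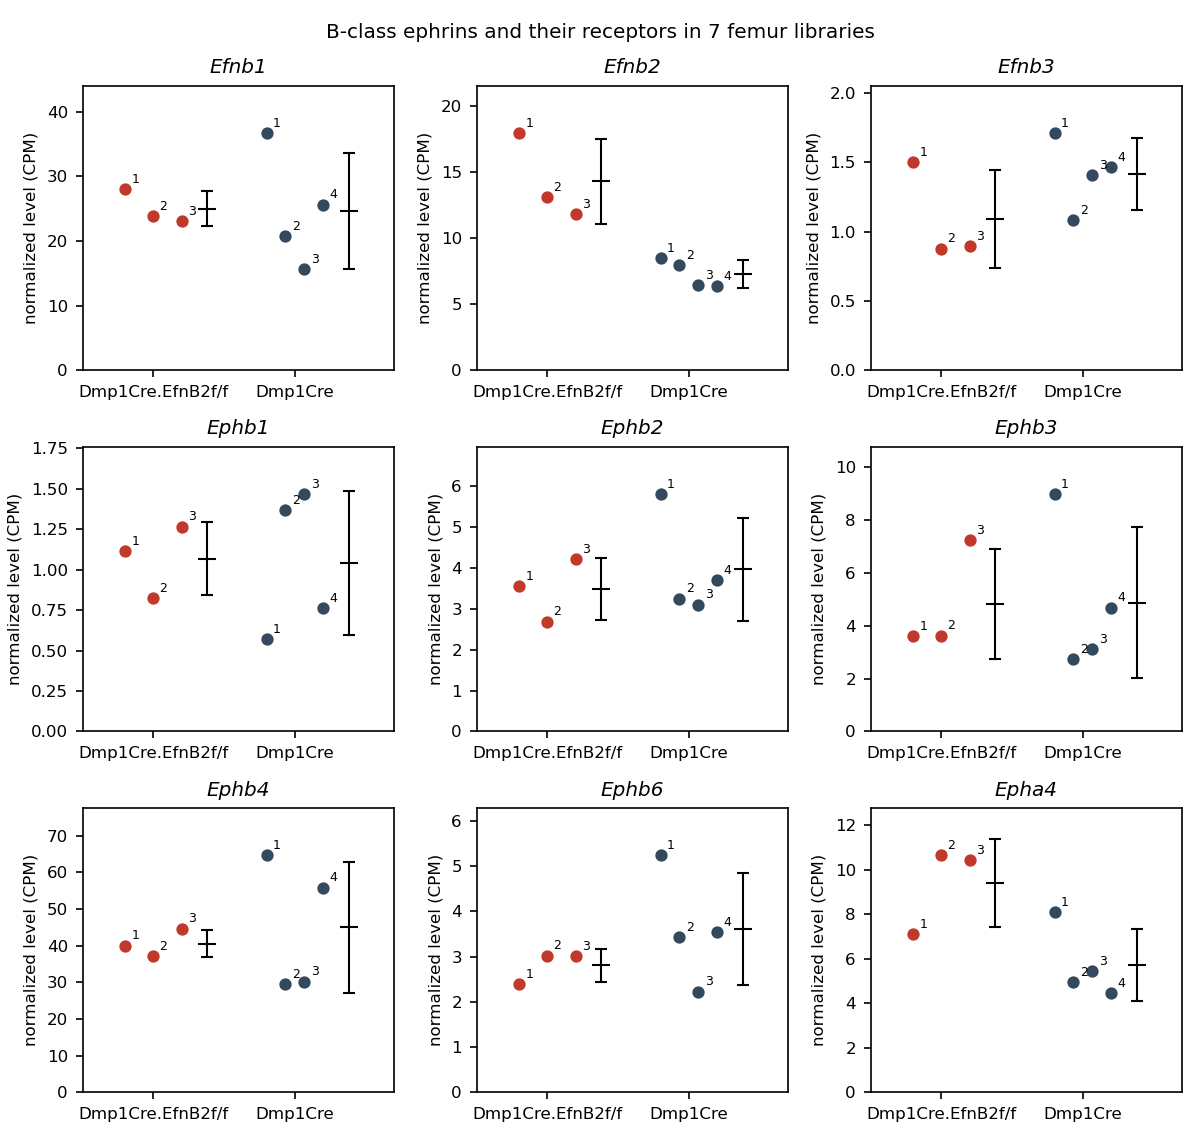
CPM of each member by genotype, with 1 point per library and the mean and SD (n = 3 and n = 4). Efnb2 is the panel in which the groups do not overlap, from 11.8 to 17.9 CPM against 6.36 to 8.50 CPM.

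Among the ligands, Efnb2 (Entrez gene 13642, chr8:8617235-8661242 of GRCm38, minus strand, 5 exons) had 322, 239 and 224 counts in the 3 libraries with the Dmp1Cre.EfnB2f/f label. Controls 1 to 4 had 164, 139, 110 and 117 counts. Scaled to TMM library size these were 17.9, 13.1 and 11.8 CPM against 8.50, 7.93, 6.45 and 6.36 CPM. The lowest library with that label was thus above the highest control. The group means, 14.3 ± 3.21 and 7.31 ± 1.07 CPM (SD, n = 3 and 4), differed 1.95-fold. The log2 fold change was 0.96 ± 0.21 (SE), with a 95% interval of 0.48 to 1.45. Its unadjusted p was 0.00159, rank 23 of 15077, and its adjusted p by edgeR with Benjamini-Hochberg adjustment was 0.510. The two-sided exact permutation test over the 7 libraries gave p = 0.0286, the smallest it allows.

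The call on Efnb2 depended on the model, while its direction did not. With DESeq2 the log2 fold change was 0.94 with an adjusted p of 0.0341, and 0.159% of all genes were called as higher. Limma on quantile-normalized log2 CPM with sample weights followed the pipeline of the study, but without its block for the collection day. It gave 0.76 with an adjusted p of 0.0160, where 7.54% of all genes were called as higher. The adjusted p ranged from 0.0160 to 1.00 over 16 alternatives, all with a positive log2 fold change, and 2 of the 16 passed the threshold. Within the cross that held both genotypes, Dmp1Cre.EfnB2f/f 3 exceeded control 3 by 0.87 on the log2 scale, with 1 mouse on each side. Other members also differed in that pair: Ephb3 by 1.22, Efnb1 and Ephb4 by 0.56 each, Ephb2 by 0.44 and Ephb6 by 0.43. Efnb3 differed by -0.65 and Ephb1 by -0.21.

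Efnb1, the X-linked B-class ligand, was the most abundant of the 3 ligands. Its 28.0, 23.9 and 23.1 CPM in the libraries with the Dmp1Cre.EfnB2f/f label fell inside the control values of 36.6, 20.7, 15.6 and 25.6 CPM. Between the groups the log2 fold change was 0.02 ± 0.27 (SE), with a 95% interval of -0.61 to 0.64 (adjusted p = 0.979 by edgeR). The spread of the controls, 8.96 CPM SD, was larger than that of the other group, 2.65 CPM, and control 1 was the highest library of all.

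Efnb3, best known as a ligand of the nervous system, was scarce, with 16 to 33 counts a library. Libraries with the Dmp1Cre.EfnB2f/f label had 1.50, 0.878 and 0.897 CPM and the controls 1.71, 1.08, 1.41 and 1.47 CPM. The 2 lowest values belonged to Dmp1Cre.EfnB2f/f 2 and 3 and the highest to control 1, with overlap between. Counting error alone amounts to 25.0% of the level at 16 counts. The log2 fold change was -0.38 ± 0.32 (SE; 95% interval -1.10 to 0.34; adjusted p = 0.616 by edgeR).

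Within each library, Efnb2 made up 31.4%, 28.5% and 27.1% of the summed B-class ligand RPKM in the libraries with the Dmp1Cre.EfnB2f/f label. In the controls it made up 14.3% to 22.2%. These shares did not overlap, and they do not depend on the scaling between libraries. Efnb1 correspondingly took 65.1% to 70.2% against 71.3% to 81.8%, and Efnb3 2.57% to 3.53% against 3.87% to 6.50%. The summed ligand level overlapped between the groups, at 10.1 to 13.2 RPKM against 6.73 to 13.7 RPKM. As the members were chosen, the shares are a description with no test.

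**Figure D3:**
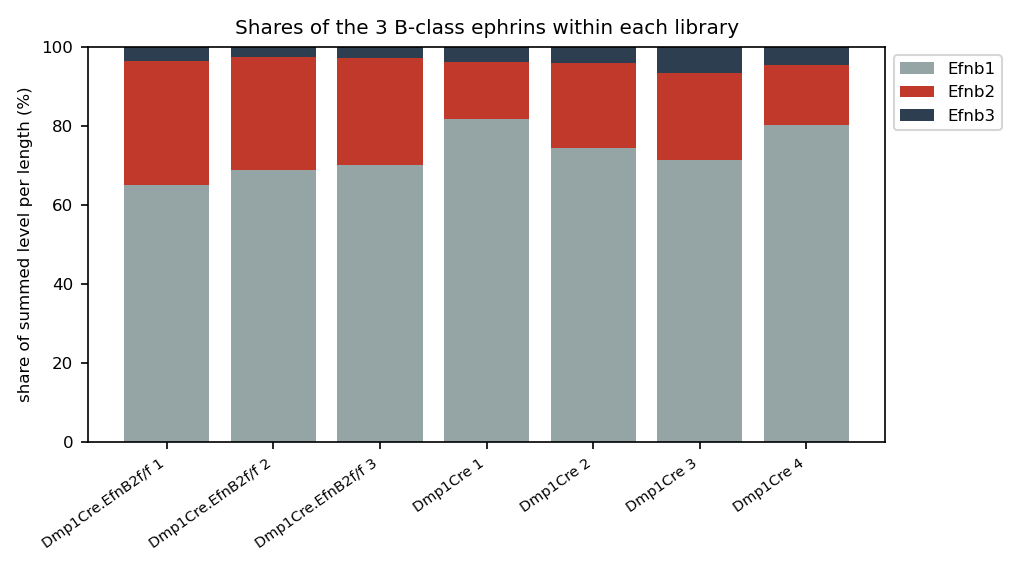
Shares (%) of Efnb1, Efnb2 and Efnb3 in the summed level per length of the 3 ligands, 1 bar per library. The Efnb2 segment covers 27.1% to 31.4% of the bar in the libraries with the Dmp1Cre.EfnB2f/f label and 14.3% to 22.2% in the controls.

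Among the receptors, Ephb4 (chr5:137350109-137374522 of GRCm38), the receptor with the strongest preference for EphrinB2, held between 72.6% and 81.0% of the summed EphB RPKM in every library. It had 40.0, 37.2 and 44.6 CPM in the libraries with the Dmp1Cre.EfnB2f/f label and 64.6, 29.5, 30.2 and 55.8 CPM in the controls. The former lay in a gap between controls 2 and 3, which were lower, and controls 1 and 4, which were higher. The log2 fold change was -0.15 ± 0.30 (SE; 95% interval -0.83 to 0.53; adjusted p = 0.823 by edgeR), and without control 1 it was 0.08. With 515 to 1247 counts a library, counting error was at most 4.41%, less than the spread among controls (SD 17.9 CPM).

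Epha4 (chr1:77367182-77515107 of GRCm38), the A-class receptor that also binds B-class ephrins, was the only receptor with an unadjusted p under 0.05. It had 7.12, 10.6 and 10.4 CPM in the libraries with the Dmp1Cre.EfnB2f/f label and 8.08, 4.97, 5.45 and 4.46 CPM in the controls. The groups overlapped only because control 1 was above Dmp1Cre.EfnB2f/f 1. This gave a log2 fold change of 0.71 ± 0.26 (SE; 95% interval 0.11 to 1.31), with an unadjusted p of 0.0254 (rank 687 of 15077) and an adjusted p of 0.510 by edgeR. The two-sided exact permutation test gave p = 0.0857. Between the 2 mice of the shared cross the Epha4 difference was 0.94 on the log2 scale, in a pair where other members also differed, as given above. The adjusted p was 0.317 with DESeq2 and 0.0196 with limma with sample weights (log2 fold change 0.80), and it ranged from 0.0196 to 1.00 over the alternatives. Its share of the summed RPKM of the 6 receptors was 8.80% to 13.3% against 4.27% to 8.54%.

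Ephb3, a receptor known from intestinal and nervous tissue, varied most between libraries, 3.27-fold from the lowest to the highest. It had 3.62, 3.62 and 7.23 CPM in the libraries with the Dmp1Cre.EfnB2f/f label and 8.96, 2.74, 3.11 and 4.68 CPM in the controls. In each group 1 library stood above the rest, Dmp1Cre.EfnB2f/f 3 and control 1. Its log2 fold change was -0.02 ± 0.46 (SE; 95% interval -1.05 to 1.02; adjusted p = 0.989 by edgeR), so that differences of up to 2-fold in either direction were inside the interval. Left-out libraries moved it from -0.43 to 0.46.

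Ephb2, a receptor for all 3 B-class ligands, had 3.56, 2.69 and 4.22 CPM against 5.80, 3.25, 3.11 and 3.70 CPM in the controls (log2 fold change -0.19 ± 0.30, SE; 95% interval -0.86 to 0.49; adjusted p = 0.782 by edgeR). Ephb6, whose kinase domain lacks catalytic activity, had 2.39, 3.02 and 3.01 CPM against 5.23, 3.42, 2.23 and 3.54 CPM (log2 fold change -0.36 ± 0.31, SE; 95% interval -1.07 to 0.34; adjusted p = 0.620 by edgeR). In both, control 1 was the highest library and the groups overlapped.

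Ephb1 was the scarcest member, with 11 to 25 counts a library and a counting error of 30.2% at the lowest. It had 1.11, 0.823 and 1.27 CPM against 0.570, 1.37, 1.46 and 0.761 CPM. Its log2 fold change was 0.04 ± 0.39 (SE; 95% interval -0.85 to 0.94; adjusted p = 0.966 by edgeR). With limma with sample weights it had the opposite sign (-0.71), with an adjusted p of 0.0568 that ranged up to 1.00 over the alternatives. Its exons share 2.17% of their bases with another annotated gene, Gm26846 on the opposite strand, and the strand setting of the counting was not given in the sources used here. For Ephb4 that share was 0.711%, with Zan, and for the other 7 members 0%.

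**Figure D4:**
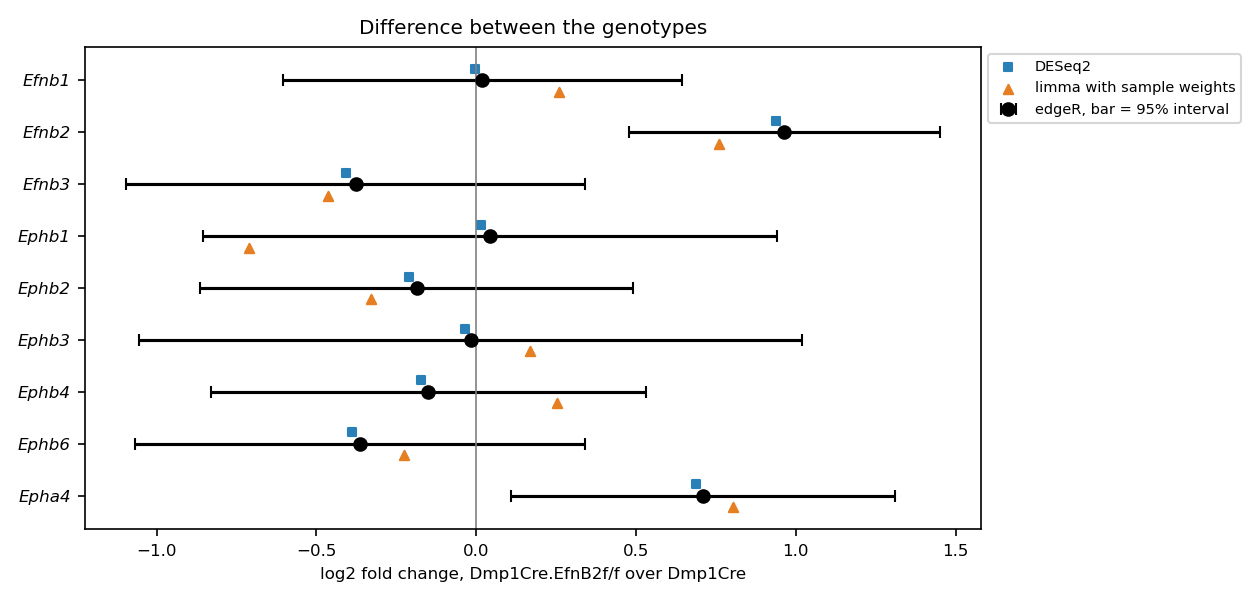
Log2 fold change of each member, libraries with the Dmp1Cre.EfnB2f/f label over controls, by edgeR (circle, with its 95% interval), DESeq2 (square) and limma with sample weights (triangle). The intervals of Efnb2 (0.48 to 1.45) and Epha4 (0.11 to 1.31) lie above 0 and the other 7 include it; no member passed the adjusted threshold with edgeR.

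The ratio of Efnb2 to Ephb4 RPKM within a library, a measure of ligand over preferred receptor, was 0.452, 0.356 and 0.267 in the libraries with the Dmp1Cre.EfnB2f/f label. In the controls it was 0.133, 0.272, 0.216 and 0.115. The groups overlapped only by Dmp1Cre.EfnB2f/f 3 and control 2. Efnb2 over Efnb1 was 0.386 to 0.482 against 0.175 to 0.311, with no overlap. Summed ligand over summed receptor RPKM overlapped, at 0.649 to 1.03 against 0.593 to 0.846.

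Control 1 held the highest CPM of the 7 libraries for 6 of the 9 members (Efnb1, Efnb3, Ephb2, Ephb3, Ephb4 and Ephb6), where it did so for 14.0% of all genes tested. The other 3 peaked elsewhere, Efnb2 in Dmp1Cre.EfnB2f/f 1, Epha4 in Dmp1Cre.EfnB2f/f 2 and Ephb1 in control 3. Control 1 was the lowest library for Ephb1.

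The cell types in the pieces were described by marker lists, since a level in whole bone reflects both the number of cells of a type and the RNA in each, which cannot be told apart here. Of 126 markers of 16 cell types in the files, 0 were at 0 counts in all libraries. The 10 osteocyte markers, led by Dmp1 and Phex, summed to 352 to 613 CPM in the libraries with the Dmp1Cre.EfnB2f/f label and 224 to 755 CPM in the controls, and the 10 osteoblast markers, led by Col1a1, to 15112 to 24854 against 14525 to 72211 CPM. Control 1 was the highest library in both lists. RNA of other tissues was plentiful: skeletal muscle markers (led by Myh4) summed to 27453 to 41677 against 12915 to 29418 CPM.

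For 13 of the 16 lists the sums overlapped between the groups, and for 3 they did not. The 7 arterial endothelial markers (Jag1 and Bmx the highest, and Dll4 also on the list of Efnb2 inducers below) summed to 85.7 to 96.2 CPM in the libraries with the Dmp1Cre.EfnB2f/f label and 67.3 to 83.9 CPM in the controls. The 9 erythroid markers found, led by Hba-a1, were lower, at 9056 to 17666 against 20076 to 56712 CPM. The 8 neutrophil markers, led by S100a9, were also lower, at 11896 to 14932 against 17022 to 19890 CPM. Some vessel markers, named here after their values were seen, were higher with Efnb2. Of 12 endothelial markers 9 had a positive log2 fold change, and Vwf (-0.28), Esam (-0.03) and Tie1 (-0.02) a negative one. Flt1 (0.59), Tek (0.54) and Emcn (0.44) had an unadjusted p under 0.05 and groups apart. Of 8 smooth muscle and pericyte markers 7 were positive and Cspg4 negative (-0.23). Myh11 (0.92), with overlap, and Rgs5 (0.90), without, had an unadjusted p under 0.05. The adjusted p of these 5 was 0.510 by edgeR. Over all genes 4.64% were higher at that unadjusted p, and 5.05% were apart and higher. All 10 skeletal muscle markers were positive, 4 of them at an unadjusted p under 0.05. The part of all these cell types in the levels of Efnb2 and Epha4 was not tested.

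Efnb2 was also set against these sums within each library, as a description chosen after the values had been seen. Per 100 CPM of arterial markers there were 13.6 to 18.6 CPM of Efnb2 in the libraries with the Dmp1Cre.EfnB2f/f label and 9.45 to 10.1 in the controls. Per 100 CPM of the 12 endothelial markers there were 0.989 to 1.35 against 0.364 to 0.740. Vwf, at 443 to 1048 CPM, carried much of that sum, and without it, over 11 markers, there were 1.86 to 2.28 against 0.906 to 1.61. Per 100 CPM of osteocyte markers there were 2.92 to 3.61 against 1.13 to 2.88. The groups were apart in all 4 of these measures, of which 2 use the endothelial list, and only narrowly in the osteocyte measure. Efnb2 CPM was already apart before this scaling, and the share of all genes apart on such measures was not computed. The part of cell composition in the Efnb2 difference was not tested. Per 100 CPM of erythroid or neutrophil markers the separation was fixed in advance. Efnb2 was higher and both sums were lower in every library with that label than in any control. The groups were apart at 0.0669 to 0.198 against 0.0112 to 0.0395 for erythroid markers. For neutrophil markers the groups were at 0.0811 to 0.151 against 0.0320 to 0.0476. The groups overlapped per 100 CPM of skeletal muscle markers, at 0.0315 to 0.0652 against 0.0219 to 0.0630. They also overlapped per 100 CPM of osteoblast markers, at 0.0475 to 0.119 against 0.0118 to 0.0546, and of smooth muscle and pericyte markers, at 3.06 to 4.04 against 1.64 to 3.10. For Epha4 the groups overlapped per 100 CPM of arterial, endothelial, osteocyte, smooth muscle and skeletal muscle markers. They were apart per 100 CPM of osteoblast markers, at 0.0420 to 0.0582 against 0.0112 to 0.0368, and of erythroid and neutrophil markers, whose sums were themselves lower. Col1a1 and Col1a2 carried most of the osteoblast sum, with control means of 18069 and 14540 CPM against 593 CPM for Bglap, the next highest. Epha4 was not set against the osteoblast markers without these 2 genes.

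**Figure D5:**
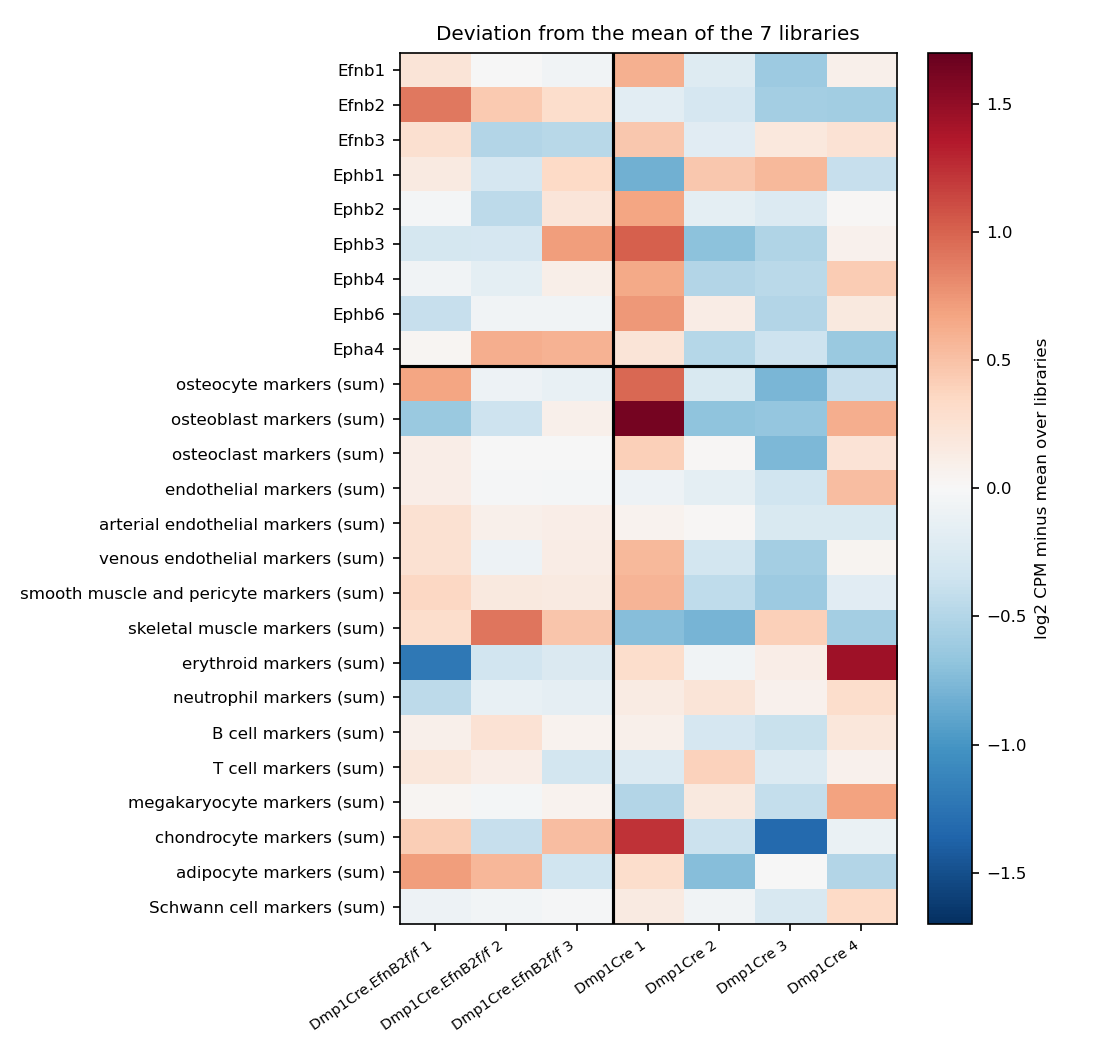
Deviation of log2 CPM from the mean of the 7 libraries for the 9 members (top) and for the summed markers of 16 cell types (bottom); columns are libraries, red is above and blue below the mean. Efnb2 is red in the 3 libraries with the Dmp1Cre.EfnB2f/f label and blue in the 4 controls, while most other members share the red column of control 1.

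Other genes of the pathway were taken from 5 lists that held 67 genes tested. With edgeR 0 of the 67 passed an adjusted p of 0.05, and 8 had an unadjusted p under 0.05, 6 higher and 2 lower, which is 11.9% where 9.66% of all genes passed, 4.64% higher and 5.02% lower. Groups were apart for 13 genes, 6 higher and 7 lower, against 11.3% of all genes (5.05% higher and 6.29% lower). The median log2 fold change over the 67 was 0.08. The adjusted p of every gene named below was 0.510 or more by edgeR.

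Forward signalling adapters and exchange factors, which act below the receptor kinase, numbered 24 tested, with 2 higher and 1 lower at an unadjusted p under 0.05 and a median log2 fold change of 0.10. Yes1, a kinase of the Src family, stood at 13.5 ± 3.03 CPM against 7.77 ± 2.04 CPM (SD, n = 3 and 4). Sh2d3c, an adapter that binds EphB receptors, had 51.7 ± 3.72 against 71.6 ± 13.1 CPM, with no overlap. Afdn, the PDZ protein afadin, was the other gene (log2 fold change 0.56) and is named after its value was seen.

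Reverse signalling partners, which bind the tail of the ligand or act below it, numbered 11, with 2 higher and 0 lower and a median of 0.02. Pdzrn3, a PDZ domain ubiquitin ligase, had 28.1 ± 1.60 CPM against 18.6 ± 4.80 CPM. Tjp1, the tight junction protein ZO-1, had 71.3 ± 7.22 against 52.6 ± 7.07 CPM. Neither overlapped between the groups.

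The 11 proteases and phosphatases that cut ephrins or Eph receptors or reverse their phosphorylation had 0 genes at an unadjusted p under 0.05. Their median log2 fold change was -0.25, with 3 of 11 positive. The 2 with the lowest p were Ptpn1, a tyrosine phosphatase, with 116 ± 5.68 against 152 ± 30.0 CPM, and Mmp9, a gelatinase, with 601 ± 9.10 against 882 ± 377 CPM.

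Genes known to raise Efnb2 in bone or vessels, among them parathyroid hormone, IGF-1, VEGF and Notch signalling, numbered 12, with 2 higher and 1 lower at an unadjusted p under 0.05 and a median of 0.31. Rbpj, the DNA-binding partner of Notch, had 35.2, 33.0 and 28.8 CPM in the libraries with the Dmp1Cre.EfnB2f/f label and 13.4, 20.8, 19.5 and 20.2 CPM in the controls. The groups were well apart, with a log2 fold change of 0.81 ± 0.19 (SE) and an unadjusted p of 0.00246. Igf1 had 49.7 ± 9.32 against 32.8 ± 6.10 CPM, also with no overlap. Notch1 was the gene that was lower (log2 fold change -0.48), and is named after its value was seen.

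The A-class relatives gave no gene at an unadjusted p under 0.05 among 9 tested of 13. Of these Epha2 was the most abundant, at 13.0 ± 5.62 RPKM (SD, n = 4) in the controls, then Epha1 at 5.78 ± 1.23 and the ligand Efna1 at 4.94 ± 2.01. The lowest p belonged to Efna2 (log2 fold change -0.42) and Epha7 (0.36). Efna3, Epha5, Epha6 and Epha8 had 0 to 9 counts and were not tested.

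The genes whose log2 CPM followed that of Efnb2 most closely over the 7 libraries, among 15076 others, were 2610307P16Rik (Pearson r = 0.987), Cd302 (0.979), which encodes a C-type lectin receptor, and Nav3 (0.978), which encodes a neuron navigator protein. Each had its groups apart in the same direction as Efnb2, for example Cd302 with 22.7 to 27.9 CPM against 17.4 to 19.2 CPM. For Ephb4 they were Atf5 (0.997), a stress-response transcription factor, Cdr2l (0.995) and Adamts7 (0.990), a protease of cartilage and vessel matrix. These overlapped between the groups as Ephb4 did, Cdr2l with 15.7 to 20.1 against 12.7 to 33.4 CPM. The points share library composition and were searched for likeness, so the coefficients are a description.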

How the data were processed

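Femoral cortical bone RNA was sequenced from 3 Dmp1Cre.EfnB2f/f and 4 Dmp1Cre mice, grouped by their labels. Reads were aligned by the authors to mm10 (Rsubread) and assigned to genes with featureCounts on its built-in annotation, and the authors deposited raw counts per gene without normalization or filter. Collection took place on 2 days that no label assigns to samples, so day was not a term.

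CPM and RPKM were computed here from the deposited counts, on TMM library sizes and the files' gene lengths, and positions taken from RefSeq GRCm38.p6 (25271 of 27179 genes matched). Genes at 0.65 CPM or more in at least 3 libraries (16302) were kept, and 1225 left out, which left 15077. These were immunoglobulin segments, pseudogenes, predicted, ribosomal RNA and Y-linked genes, recognised by symbol or gene type after the study's own classes, and genes without a symbol. edgeR 4.0.16 in R 4.3.3 (quasi-likelihood, robust, no covariate) was the main test, with Benjamini-Hochberg adjustment at 0.05. Standard errors are the log2 fold change over the root of F. Exact permutation tests used log2(CPM + 0.5). Alternatives were DESeq2 1.42.0, limma 3.58.1 (log2 CPM with prior count 2, quantile normalization, sample weights), 2 scalings, 3 filters, replicate and parent cross blocks and each library left out. Scripts were tested on simulated data. Within genotypes, all 9 library pairs differed beyond sampling noise (chi-square per degree of freedom 29.0 to 226).

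The members and lists were chosen with earlier results of these data known. Named are all members, the 2 genes with the lowest p in each pathway list, at most 2 leading genes of a marker list and the 3 genes nearest in pattern to Efnb2 and Ephb4, with exceptions marked. A further pathway list that had been planned is not reported here.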

Additional observations from a re-analysis of the deposited data

Results flagged for a closer look

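Of 30 values examined for a control library that stands apart, 1 was past Dixon's 95% critical value for the gap to the nearest control over the range of the controls. It was Tjp1, with a gap of 0.852: control 4 had 42.1 CPM where controls 1, 2 and 3 had 57.2, 56.2 and 55.0 CPM. Chance gives about 1 in 20 such cases, and among the 9 members there were 0.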

How the results depend on the processing

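Efnb2, Efnb3 and Epha4 kept the sign of their log2 fold change under all 16 alternatives. Members called rose from 0 to 1 with DESeq2 (Efnb2, 0.94) and to 2 with limma with sample weights (Efnb2 0.76, Epha4 0.80). Pathway genes called rose from 0 to 9 of 67 with limma. Over all 15077 genes, limma called 1137 as higher and 1121 as lower, and DESeq2 24 and 48. The study, which used limma with the collection day as a block, reported genes in both directions at a false discovery rate under 0.05. The other 6 members changed sign under at least 1 of the 16 alternatives: with DESeq2 Efnb1 (-0.0047), with limma Ephb1 (-0.71), Ephb3 (0.17) and Ephb4 (0.25), and with library size only Ephb3 (0.086). With the parent cross as a block, which rests on 1 pair of mice, they were -0.21 for Ephb1, 0.44 for Ephb2, 1.22 for Ephb3, 0.56 for Ephb4 and 0.43 for Ephb6, and among pathway genes 0.95 for Efna2, -0.0022 for Yes1 and 0.083 for Mmp9. The cause was not tested.

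Same-numbered libraries did not deviate together from their group means (correlations -0.14, 0.06 and -0.42). The pair with number 3, at -0.42, is also the pair of the shared cross. With the replicate block, in which control 4 has no partner, Efnb2 was 0.89 (adjusted p = 0.985 by edgeR), Epha4 0.62, Ephb1 -0.026, Ephb3 0.10 and Ephb4 0.071, and unadjusted p values under 0.05 fell from 1456 to 576 genes.

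With 1 library left out, log2 fold changes ranged from 0.77 to 1.09 for Efnb2, 0.61 to 0.92 for Epha4, -0.67 to -0.23 for Efnb3, -0.53 to -0.13 for Ephb6, -0.14 to 0.28 for Efnb1, -0.16 to 0.25 for Ephb1, -0.34 to 0.058 for Ephb2, -0.43 to 0.46 for Ephb3 and -0.31 to 0.077 for Ephb4. The neighbour pairs past the threshold in the order of levels fell from 4 to 0 in each case (adjusted exact permutation p 0.05 to 0.0625), where 6 libraries allow no unadjusted p under 0.03125. All 4 kept their direction.

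Counting error at the lowest library was 25.0% for Efnb3 and 30.2% for Ephb1. Only 1 cross held both genotypes, with 1 mouse each, and the collection day could not enter a fit.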
